A study of Rattus norvegicus with 35 samples.

Results

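The genes that encode the constitutive subunits of the proteasome were examined in the rat retina after 2 injuries of the left optic nerve. The members were the genes with a platform symbol of the form Psma, Psmb, Psmc or Psmd followed by a number, with Psmb8, Psmb9 and Psmb10 left out. The rule found 33 of the 14217 genes that had a probe set with a single symbol, and each gene was read from its probe set with the highest mean over all 35 arrays. In 15 arrays the nerve had been cut through within the orbit (intraorbital nerve transection, IONT): 3 arrays stand for 12 h after it, 2 for 24 h, 3 for 48 h, 2 for 3 d, 3 for 7 d and 2 for 15 d. In 15 others it had been squeezed (intraorbital nerve crush, IONC), with 3 arrays for each time up to 7 d (12 h, then 24 h, then 48 h, then 3 d and 7 d). The uninjured group was naive retina (5 arrays, A to E). All animals were adult female Sprague-Dawley rats, and each array was hybridised with RNA pooled from 4 left retinas of different animals. IONT at 12 h, 48 h and 7 d and all IONC groups were set against naive A to C, and IONT at 24 h, 3 d and 15 d against naive D and E, so comparisons within each set share their naive arrays.

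The proteasome degrades proteins that carry a ubiquitin chain. Its core particle is a barrel of alpha rings, which gate the entrance, around beta rings, which hold the protease sites. A regulatory particle caps the barrel, with a base of ATPases that unfold the substrate and a lid that removes the ubiquitin chains. Under interferon the constitutive catalytic beta subunits are replaced by the inducible Psmb8, Psmb9 and Psmb10, which form the immunoproteasome. In the retina the proteasome is best known for the quality control of photoreceptor proteins, shown in mice, and the optic nerve injuries studied here kill retinal ganglion cells, a small fraction of retinal cells.

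Retinal identity was checked on marker genes, and the rod arrestin Sag and the Muller glial enzyme Glul were among the bright signals. In naive A to C their log2 signals were 14.87 and 12.88, and the 5 lens markers lay between 13.77 (Cryba2) and 14.61 (Cryaa). Replicate 2 of IONC 12 h stood apart from all other arrays. Its probe sets spread less, with a standard deviation of log2 signals of 2.30, against 2.89 to 3.03 in the other 34 arrays, and its median correlation with the others was 0.871, against 0.962 to 0.992. In it all 33 subunit genes lay below their naive A to C mean, with a median deviation of -0.81, whereas replicates 1 and 3 of IONC 12 h had a median deviation of 0.12. Results below are therefore given with and without this array. The arrays set against naive D and E had a higher 3′ minus 5′ log2 difference of the beta-actin control probes (2.61 to 3.65 in 8 arrays) than those set against naive A to C (1.53 to 1.93 in 27 arrays).

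None of the 33 constitutive subunit genes was called changed at any time after IONT or IONC with all arrays in the fit. To be called, a probe set had to change at least 1.2-fold with limma's adjusted p under 0.01 and positive B, its log-odds of change. With all arrays the median absolute log2 difference over the 363 gene and injury values was 0.12, beside a median standard error of 0.17. Without replicate 2 of IONC 12 h the median standard error was 0.106, which is below 0.12. For 225 of the 363 values the 95% interval of the difference lay wholly within 1.5-fold in either direction, and for 331 of them when replicate 2 of IONC 12 h was left out. The remaining values had intervals that reach past 1.5-fold, so a change of that size stays within the error of those values.

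**Figure D1:**
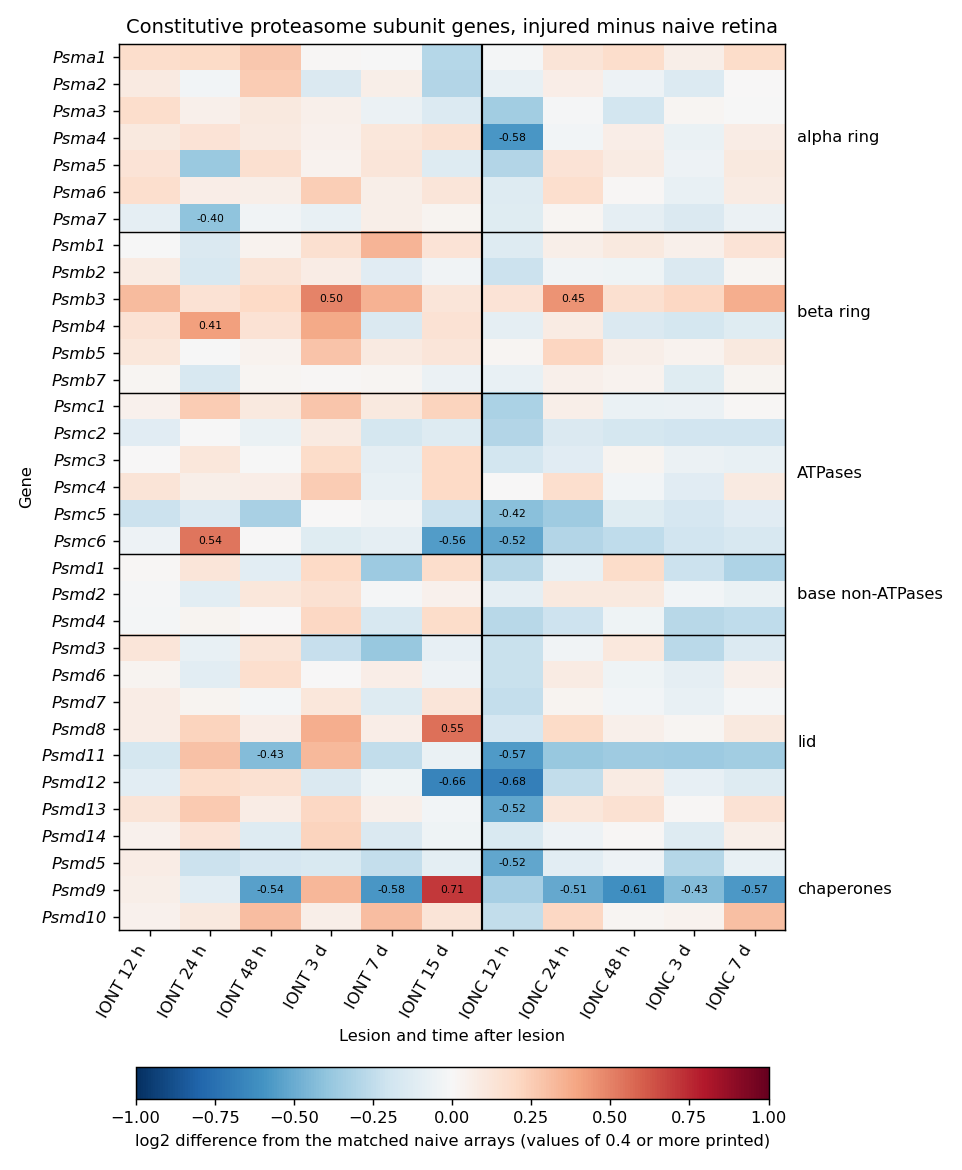
Log2 difference from naive of the 33 constitutive subunit genes (rows, by role) after IONT and IONC (columns, by time), coloured from lower to higher. Values of at least 0.4 in size are printed, and the largest is 0.71 for Psmd9 at IONT 15 d.

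After IONT the counts of members followed the low counts over all probe sets. At 12 h 0 of 33 genes was called by limma and 0 had an unadjusted p under 0.05, against 1.05% called and 7.53% under that p among all probe sets. At 24 h 0 was called and 3 had an unadjusted p under 0.05 (background 0.831% and 9.22%). At 48 h 0 was called and 3 were under 0.05, all 3 lower (background 2.06% and 11.3%). At 3 d 0 was called and 2 were under 0.05, both higher (background 0.954% and 10.2%). At 7 d 0 was called and 2 were under 0.05 (background 0.976% and 10.6%). At 15 d 0 was called and 3 were under 0.05 (background 1.87% and 12.2%). The members' median log2 difference lay between -0.03 at 7 d and 0.12 at 3 d, beside medians over all probe sets of 0.06 and -0.02 at those times. At 3 d 27 of 33 members had a difference above 0, beside 38.9% of all probe sets. In replicates 1 and 2 of that group 11 and 7 members lay below the naive mean. The members' means over all arrays were 7.14 to 12.12, against a median of 4.39 over all probe sets. Shares over all probe sets therefore include many dimmer ones.

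After IONC the members' shares were likewise near or below the background. At 24 h 0 of 33 was called and 4 had an unadjusted p under 0.05 (background 0.896% and 8.95%). At 48 h 0 was called and 2 were under 0.05 (background 1.36% and 12.4%). At 3 d 0 was called and 2 were under 0.05 (background 0.348% and 7.82%), and 8 of 33 genes had a difference above 0, beside 62.3% of all probe sets. The pools did not share this evenly, as 30, 17 and 28 members lay below the naive mean in replicates 1, 2 and 3. At 7 d 0 was called and 2 were under 0.05 (background 0.577% and 7.05%). The medians at these times lay between -0.09 at 3 d and 0.03 at 24 h.

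IONC at 12 h was the time at which the array that stands apart decided the direction. With all arrays 0 of 33 members was called, 6 had an unadjusted p under 0.05, all lower, and 30 were below naive with a median of -0.23. The background of that comparison was 4.14% called and 46.4% under the unadjusted p. Without replicate 2 the median was 0.11 and 26 of 33 genes were above naive, 0 were called by limma (background 4.79%) and 10 had an unadjusted p under 0.05, beside 18.7% of all probe sets. The downward shift with all arrays thus came from 1 pool.

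**Figure D2:**
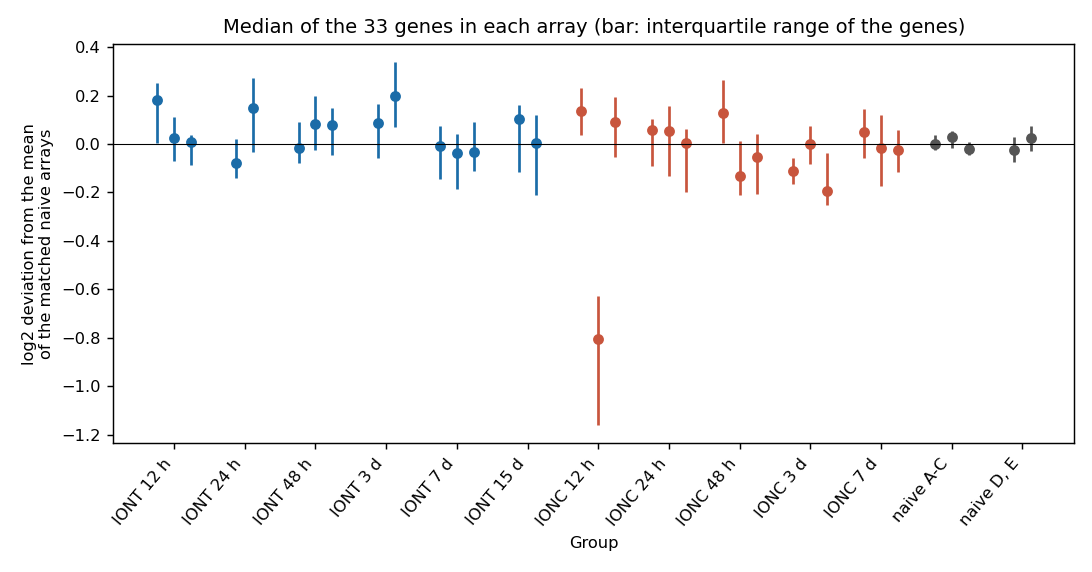
Median over the 33 constitutive subunit genes of the log2 deviation from the mean of the naive arrays each group is compared with, 1 point an array, with bars for the interquartile range over genes. Replicate 2 of IONC 12 h lies at -0.81, and the other 34 arrays lie between -0.19 and 0.20.

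The alpha ring genes, Psma1 to Psma7, had group medians between -0.13 and 0.14. Psma6 was the best measured of them, with differences between -0.13 at IONC 12 h (0.07 without replicate 2) and 0.25 at IONT 3 d and all 11 intervals within 1.5-fold. Psma4 had the widest errors of the ring (standard error 0.34 to 0.42), and none of its intervals was that narrow. The 7 alpha ring genes were all below naive at IONC 12 h with all arrays and all above it without replicate 2, by 0.03 for Psma7 to 0.33 for Psma1, none of them called in either fit.

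Of the catalytic beta subunits Psmb5 and Psmb7 were measured, whereas the probe set of Psmb6, the caspase-like subunit, carries several symbols and was not used. Psmb5 encodes the chymotrypsin-like subunit. Its log2 signals were 11.41, 11.25 and 11.14 at IONT 12 h, 11.11, 11.32 and 11.15 at IONT 48 h and 11.33, 11.16 and 11.25 at IONT 7 d. After IONC it had 11.33, 10.67 and 11.52 at 12 h, 11.33, 11.41 and 11.36 at 24 h, 11.28, 11.17 and 11.20 at 48 h, 11.14, 11.22 and 11.21 at 3 d and 11.26, 11.32 and 11.18 at 7 d, against 11.10, 11.20 and 11.16 in naive A to C. The 3 IONC 24 h arrays lay just above naive, as did the IONC 12 h arrays other than the one that stands apart at 10.67, and the other groups overlapped naive. In the other set Psmb5 had 10.23 and 10.50 at IONT 24 h, 10.46 and 10.86 at 3 d and 10.74 and 10.23 at 15 d, against 10.34 and 10.39 in naive D and E, so that both IONT 3 d arrays lay above naive and the other times lay on either side of it. The largest difference was 0.29 at IONT 3 d (SE 0.18, 95% interval -0.09 to 0.66, limma adjusted p = 0.786). Psmb5 has 2 further probe sets, but both were dim, so they say little about it.

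Psmb7, the trypsin-like subunit, was the flattest of the catalytic genes. It had 11.12, 10.99 and 10.95 at IONT 12 h, 10.93, 10.97 and 11.14 at IONT 48 h and 10.99, 11.004 and 11.07 at IONT 7 d. After IONC it had 11.14, 10.57 and 11.08 at 12 h, 11.06, 11.03 and 11.05 at 24 h, 11.15, 11.03 and 10.93 at 48 h, 10.92, 10.92 and 10.79 at 3 d and 11.04, 11.02 and 11.03 at 7 d, against 11.01, 11.04 and 10.94 in naive A to C. The IONC 3 d arrays lay just below naive, the IONC 12 h arrays lay above it except for the one that stands apart at 10.57, and the other groups overlapped it. In the other set it had 10.13 and 10.42 at IONT 24 h, 10.26 and 10.63 at 3 d and 10.64 and 10.11 at 15 d, against 10.40 and 10.46 in naive D and E, and each time overlapped naive. Its differences lay between -0.16 and 0.05, and all 11 of its intervals were within 1.5-fold.

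The other beta subunits hold the rings together and carry no protease site. Psmb3 was above naive in 11 of 11 comparisons, by 0.12 at IONT 15 d to 0.50 at IONT 3 d, and was not called in any. Without replicate 2 of IONC 12 h it had adjusted p = 0.0486 at IONT 7 d, 0.0408 at IONC 12 h and 0.0426 at IONC 24 h. Psmb4 was 0.41 above naive at IONT 24 h and 0.38 at IONT 3 d (adjusted p = 0.0118 and 0.0166 without that array). Psmb1 was 0.34 above naive at IONT 7 d, with adjusted p = 0.0148 in that fit. Psmb3, Psmb4 and Psmb1 were picked out after their values were seen.

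The ATPases of the base, Psmc1 to Psmc6, stayed between -0.56 and 0.54. Psmc2 was below naive in 10 of 11 comparisons, with its lowest value, -0.29, at IONC 12 h (-0.10 without replicate 2), and had the smallest standard errors of all members (0.10 to 0.12). Psmc5 was also below naive in 10 of 11, with -0.42 at IONC 12 h (-0.18 without replicate 2). Psmc6 held both ends of the range, at -0.56 at IONT 15 d and 0.54 at IONT 24 h, and its 3 probe sets gave no call. Among the non-ATPase base subunits, Psmd2 and the ubiquitin receptor Psmd4 had all 11 intervals within 1.5-fold, with differences between -0.11 and 0.16 for Psmd2 and between -0.28 and 0.21 for Psmd4. The scaffold subunit Psmd1 lay between -0.36 at IONT 7 d and 0.20 at IONT 3 d.

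In the lid, Psmd14 is the enzyme that cuts ubiquitin chains off the substrate. It had 10.68, 10.65 and 10.67 at IONT 12 h, 10.54, 10.47 and 10.47 at IONT 48 h and 10.48, 10.48 and 10.47 at IONT 7 d. After IONC it had 10.72, 9.84 and 10.86 at 12 h, 10.48, 10.60 and 10.63 at 24 h, 10.92, 10.41 and 10.57 at 48 h, 10.48, 10.53 and 10.49 at 3 d and 10.72, 10.74 and 10.58 at 7 d, against 10.55, 10.67 and 10.65 in naive A to C. The lowest value, 9.84, was in the array that stands apart, and the IONT 48 h, IONT 7 d and IONC 3 d arrays lay just below the naive range. In the other set it had 10.63 and 10.78 at IONT 24 h, 10.74 and 10.86 at 3 d and 10.31 and 10.73 at 15 d, against 10.65 and 10.49 in naive D and E, with both IONT 3 d arrays above naive. Its differences lay between -0.15 at IONC 12 h (0.17 without replicate 2) and 0.23 at IONT 3 d, and 10 of 11 intervals were within 1.5-fold. Psmd6 and Psmd7 had all 11 intervals within that bound, whereas Psmd3, Psmd12 and Psmd13 had none. Psmd12 had the lowest lid value at IONT 15 d (-0.66, adjusted p = 0.0088 without replicate 2 of IONC 12 h, B not above 0).

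**Figure D3:**
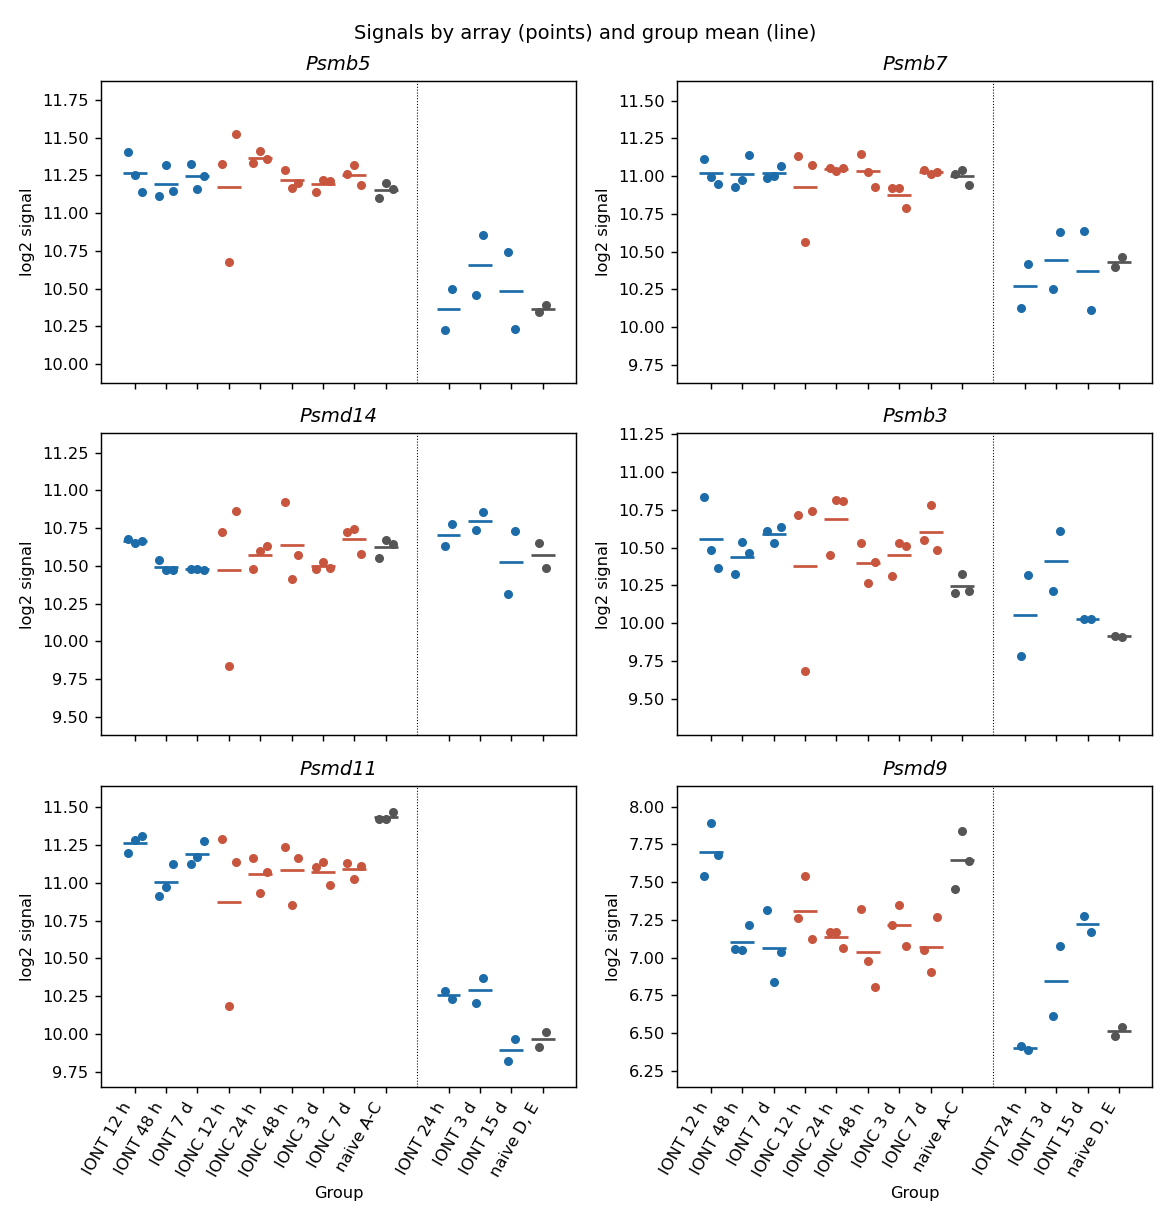
Log2 signal of 6 constitutive subunit genes in every array, 1 point an array, with groups set against naive A to C left of the dotted line and groups set against naive D and E right of it, naive last in each. Psmb5, Psmb7 and Psmd14 stay near naive except in replicate 2 of IONC 12 h, and the steps between the naive sets for Psmd11 and Psmd9 exceed 1 log2 unit.

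With replicate 2 of IONC 12 h left out and nothing else changed, Psmd11 and Psmd9 were the members called. Other settings called other members, as given under the processing alternatives. Psmd11 is a lid subunit that clamps the regulatory particle to the core. Its log2 signals were 11.20, 11.28 and 11.31 at IONT 12 h, 10.92, 10.98 and 11.12 at IONT 48 h and 11.13, 11.17 and 11.28 at IONT 7 d. After IONC they were 11.29, 10.19 and 11.14 at 12 h, 11.17, 10.94 and 11.07 at 24 h, 11.24, 10.85 and 11.17 at 48 h, 11.10, 11.14 and 10.98 at 3 d and 11.13, 11.02 and 11.11 at 7 d, against 11.42, 11.42 and 11.47 in naive A to C. Every injured array of this set lay below the lowest naive array. Without that replicate Psmd11 fell by 0.43 at IONT 48 h (SE 0.08, adjusted p = 0.000879, 1 called member, background 5.13%), by 0.38 at IONC 24 h (adjusted p = 0.00467, background 3.54%), by 0.35 at IONC 48 h (adjusted p = 0.00606, background 4.83%) and by 0.36 at IONC 3 d (adjusted p = 0.00926, background 2.05%). With all arrays the differences at those 4 times were identical and were not called, and only IONC 12 h (-0.57, adjusted p = 0.0276, but -0.22 and adjusted p = 0.153 without replicate 2) passed an adjusted p of 0.05. In the other set Psmd11 had 10.28 and 10.23 at IONT 24 h, 10.21 and 10.37 at 3 d and 9.82 and 9.97 at 15 d, against 9.92 and 10.01 in naive D and E, so that it lay above naive at 24 h and 3 d and overlapped it at 15 d. Of its 2 other probe sets, the brighter had differences of -0.12, -0.28, 0.13 and -0.20 at IONT 48 h, IONC 24 h, IONC 48 h and IONC 3 d and was not called, and the dim one had 0.28, 0.14, -0.01 and 0.26.

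Psmd9 is a chaperone that helps to assemble the base and leaves before the particle is complete. Its log2 signals were 7.54, 7.89 and 7.68 at IONT 12 h, 7.05, 7.05 and 7.22 at IONT 48 h and 7.31, 6.84 and 7.04 at IONT 7 d. After IONC they were 7.26, 7.54 and 7.13 at 12 h, 7.17, 7.17 and 7.06 at 24 h, 7.33, 6.98 and 6.81 at 48 h, 7.22, 7.35 and 7.08 at 3 d and 7.05, 6.90 and 7.27 at 7 d, against 7.45, 7.84 and 7.64 in naive A to C. The IONT 12 h arrays overlapped naive, and all later arrays of this set lay below it. At IONC 12 h only the array that stands apart, at 7.54, reached the naive range, and the difference was -0.34 with it and -0.45 without. With all arrays the adjusted p was 0.0387 at IONT 48 h (-0.54), 0.0357 at IONT 7 d (-0.58) and 0.0202 at IONC 48 h (-0.61), none of them called. Without replicate 2 of IONC 12 h Psmd9 fell at IONC 48 h, where its log2 difference was -0.61 (SE 0.14, adjusted p = 0.00585). That made 2 of 33 members called at IONC 48 h, beside 4.83% of all probe sets. The other comparisons against naive each had 1 or 0, beside 2.05% to 5.13% of all probe sets. In the other set Psmd9 had 6.42 and 6.39 at IONT 24 h, 6.61 and 7.08 at 3 d and 7.27 and 7.17 at 15 d, against 6.48 and 6.54 in naive D and E, so that it lay below naive at 24 h and above it at 3 d and 15 d. Its difference at IONT 15 d was 0.71 (adjusted p = 0.0247 with all arrays and 0.00899 without, not called), opposite in sign to the differences at IONT 48 h and 7 d. The second, dim probe set of Psmd9 did not share the pattern, with -0.01 at IONT 48 h, 0.29 at IONT 7 d, -0.15 at IONT 15 d and -0.07 at IONC 48 h.

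Leaving out replicate 2 of IONC 12 h lowered the median standard error of the members to 0.106, against 0.173 with all arrays, and 31 of the 363 values then had an adjusted p under 0.05. Psmd11 and Psmd9 gave 7 of these each and Psmc2 gave 4, with Psmc2 lower by 0.17 to 0.19 at IONT 7 d, IONC 48 h, IONC 3 d and IONC 7 d. Psmd10, another base chaperone, gave 3, at 0.31 for IONT 48 h and IONT 7 d and 0.30 for IONC 7 d. No share of all probe sets under that adjusted p stands beside these counts. They are therefore no result about the members as a set. In that fit 0 members were called by limma at IONT 12 h (background 2.95%), IONT 24 h (2.56%), IONT 3 d (3.11%), IONT 7 d (4.97%), IONT 15 d (4.07%) and IONC 7 d (2.12%), and 5, 7, 8, 9, 6 and 6 had an unadjusted p under 0.05, beside 14.5%, 17.4%, 19.6%, 43.8%, 35.2% and 35.3% of all probe sets.

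The 2 lesions were also compared with each other, each relative to its naive arrays. With all arrays 0 of 33 members was called by limma at any time. At 12 h, 8 members had an unadjusted p under 0.05, all lower after IONC than after IONT, and so had 2 members at 24 h and 4 members at 3 d, whereas the 48 h and 7 d comparisons had 0. The background was 1.32% called and 38.6% under that p at 12 h, 0.235% and 7.35% at 24 h, 0.145% and 5.98% at 48 h, 0.126% and 7.18% at 3 d, and 0.0548% and 3.41% at 7 d. The IONC minus IONT median at 12 h was -0.25 with all arrays and 0.08 without replicate 2 of IONC 12 h. Without that array Psmd11 was lower relative to naive after IONC than after IONT at 24 h (log2 difference -0.68, adjusted p = 0.00498). The same held at 3 d (-0.69, adjusted p = 0.00477). Both are differences of differences, as IONC and IONT are referred to different naive sets. Those sets differed by -1.48 for Psmd11 (D and E minus A to C), and its signals were higher in the IONC than in the IONT arrays. The background in that fit was 0.812% for 24 h and 0.805% for 3 d, and 0.986% for 12 h, 0.641% for 48 h and 0.229% for 7 d. At 12 h, 48 h and 7 d 0 members were called in it, and 2, 5 and 1 had an unadjusted p under 0.05, beside 12.2%, 12.4% and 9.07% of all probe sets.

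Between the uninjured sets more members differed than between any injured group and its naive set. Naive D and E minus naive A to C, a comparison added after the data were seen, gave 7 of 33 called members, 6 lower and 1 higher, against a background of 7.47%. The median over the members was -0.30 and 29 of 33 were below 0, beside a median of -0.01 over all probe sets. Psmd11 had 9.92 and 10.01 in naive D and E, against 11.42, 11.42 and 11.47 in naive A to C (-1.48, SE 0.18, adjusted p = 2e-06). Psmd8, a lid subunit, differed by -1.30, Psmd9 by -1.13, Psmd4 by -0.87, Psmb4 by -0.85 and Psmb5 by -0.79. Psmd1 ran the other way at 1.48 (adjusted p = 0.00024). Whether the signal difference of the beta-actin probes between the sets plays a part in these values was not tested.

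**Figure D4:**
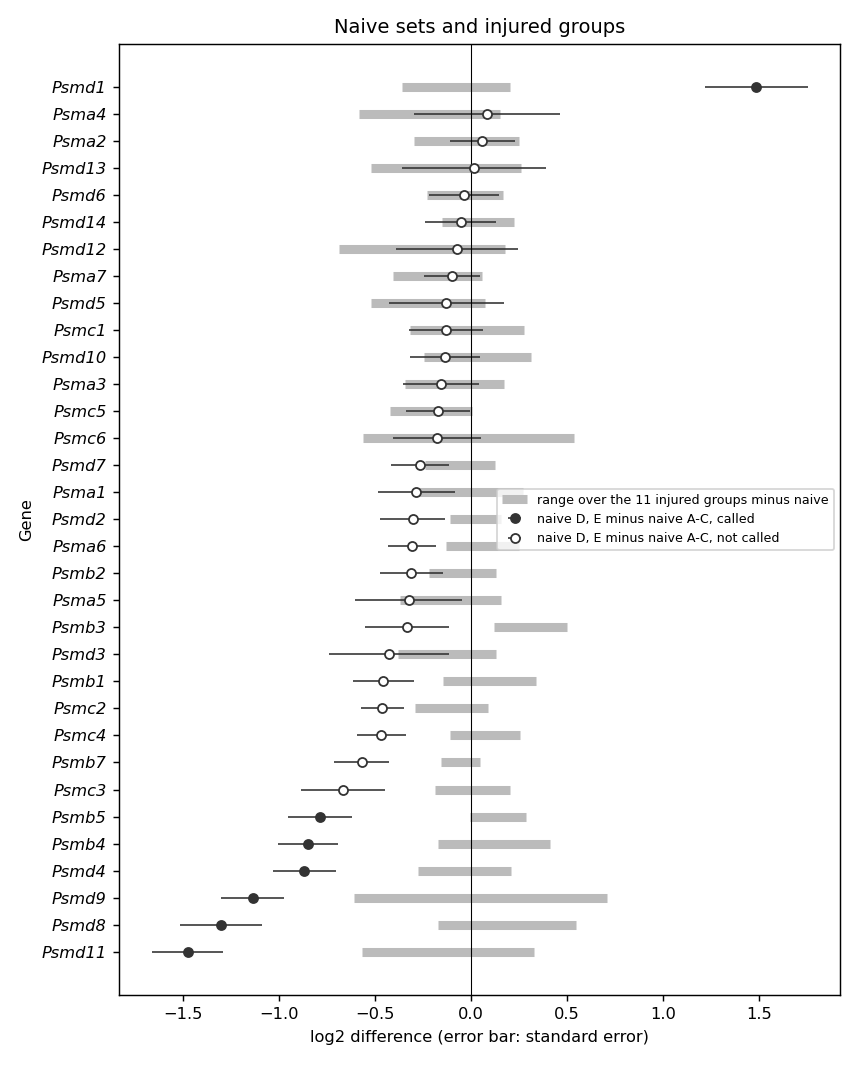
Naive D and E minus naive A to C for each of the 33 genes (points, filled where called), with the grey bar giving the range of that gene's log2 differences over the 11 injured groups. The points of Psmd11, Psmd8 and Psmd9 at -1.48, -1.30 and -1.13 lie outside their bars, as does Psmd1 at 1.48.

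The inducible subunits and activators were examined beside the constitutive genes, as a list of 8 genes of which 7 were measured. With all arrays 0 of 7 was called by limma at any of the 11 times. Between 0 and 4 had an unadjusted p under 0.05, the 4 at IONC 12 h and at IONC 48 h. Of all probe sets 46.4% were under that p at IONC 12 h and 12.4% at IONC 48 h. The median difference of the list was above 0 at all 11 times, from 0.15 at IONT 24 h to 0.71 at IONC 48 h. The difference between this list and the constitutive genes was not tested. Psmb8 had 4.68, 4.74 and 5.06 at IONT 12 h, 4.84, 4.97 and 4.83 at IONT 48 h, 6.74, 3.67 and 7.05 at IONC 12 h and 8.94, 4.05 and 5.68 at IONC 48 h, against 3.70, 3.49 and 3.52 in naive A to C. All of these injured arrays but the one that stands apart, at 3.67, lay above the naive range, and the IONC 48 h pools were widely spread. The log2 difference at IONC 48 h was 2.65 (unadjusted p = 0.00472, adjusted p = 0.1).

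Psmb9 had 6.28, 6.80 and 5.92 at IONT 48 h, 8.47, 4.82 and 8.46 at IONC 12 h and 9.31, 6.01 and 6.90 at IONC 48 h, against 5.40, 4.46 and 4.64 in naive A to C. Apart from the 4.82 of the array that stands apart these did not overlap naive. Its difference was 2.42 at IONC 12 h (adjusted p = 0.0338, not called) and 3.63 without replicate 2 of that group (adjusted p = 0.000319, called). At IONC 48 h it was 2.57 (unadjusted p = 0.00182), called without that array at adjusted p = 0.00328. Psme1, a subunit of the activator ring that opens the core, had 11.47, 9.98 and 11.31 at IONC 12 h and 11.49, 10.80 and 10.97 at IONC 48 h, against 10.05, 10.10 and 9.86 in naive A to C, so that only the array that stands apart lay within the naive range. It differed by 0.92 at IONC 12 h and by 1.09 at IONC 48 h (adjusted p = 0.0199 and 0.0151). Without the array it was called at IONT 48 h (0.84), IONC 12 h (1.39), IONC 24 h (0.82), IONC 48 h (1.09) and IONC 7 d (0.79), with adjusted p between 1.6e-05 and 0.00439, and it was higher after IONC than after IONT at 12 h (0.90, adjusted p = 0.00668). Its partner Psme2 was then called at IONC 12 h only, at 1.00 (adjusted p = 0.00116). The constitutive counterpart of Psmb8, Psmb5, differed by 0.02 at IONC 12 h with all arrays and by 0.27 without replicate 2 (adjusted p = 0.203).

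Psmb10, the inducible counterpart of Psmb7, was not called in either fit. It had 6.14, 6.73 and 6.06 at IONT 48 h, 6.95, 6.06 and 6.83 at IONT 7 d and 8.14, 6.35 and 7.58 at IONC 12 h, against 6.87, 6.86 and 6.61 in naive A to C. The IONT groups overlapped naive, with differences of -0.47 and -0.17, and at IONC 12 h only the array that stands apart, at 6.35, lay below it (difference 0.58, adjusted p = 0.206, and 1.08 without that array, adjusted p = 0.0595).

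**Figure D5:**
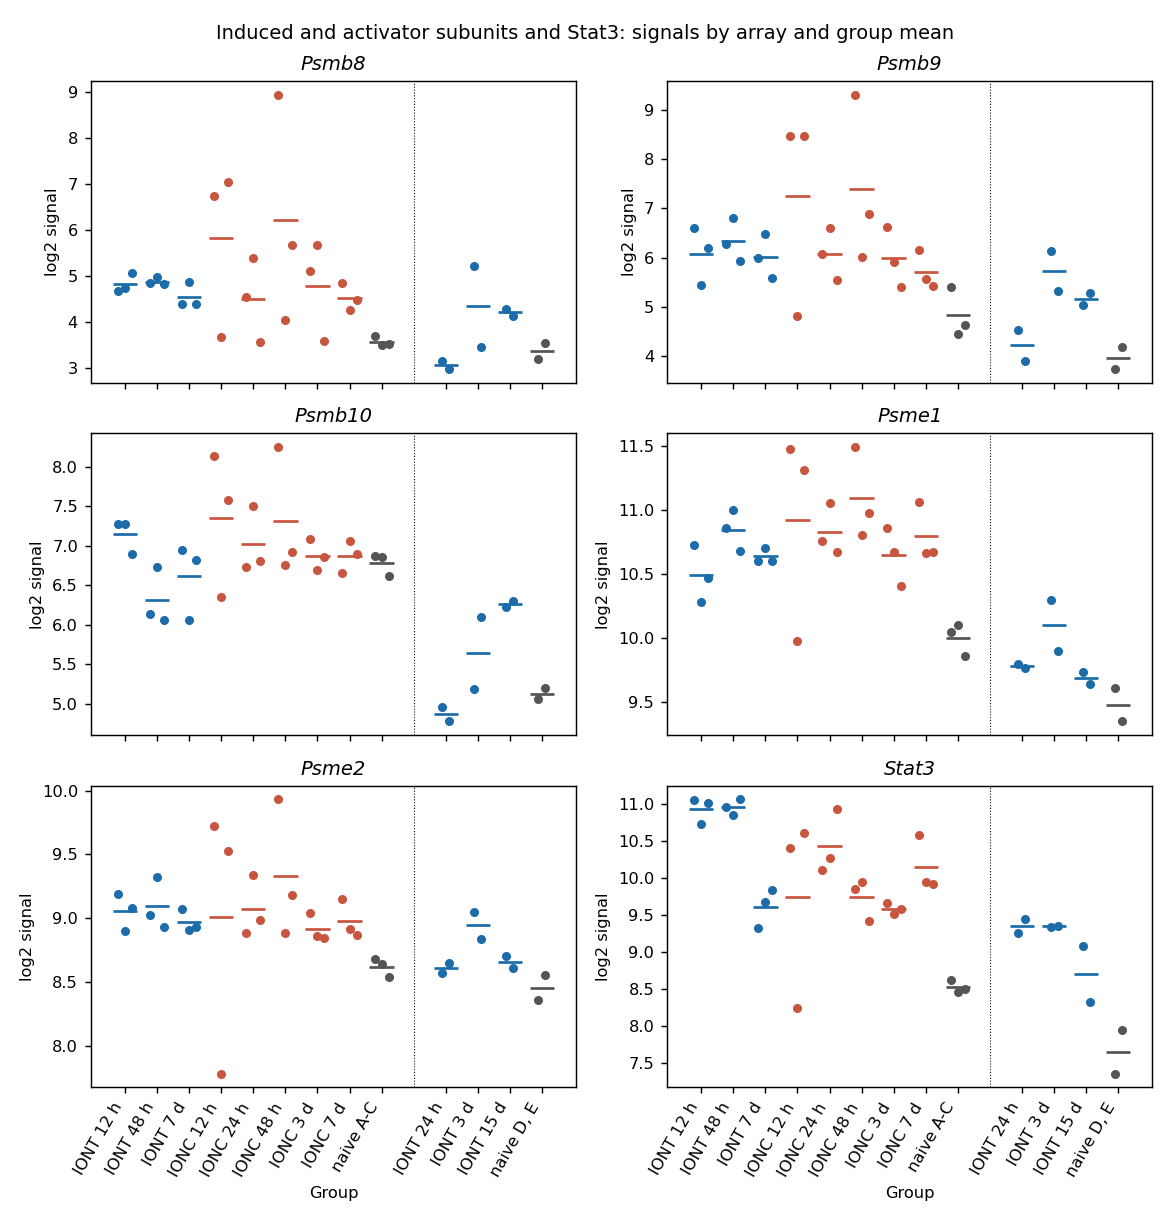
Log2 signal in every array of Psmb8, Psmb9, Psmb10, Psme1, Psme2 and Stat3, arranged as in the plot of the constitutive genes, naive last in each set. Psmb9 reaches 8.47 and 8.46 in replicates 1 and 3 of IONC 12 h, against 4.46 to 5.40 in naive A to C.

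The promoters of the constitutive Psmb5 and of its inducible counterpart Psmb8 are shown. The differences of Psmb8 were above 0 in the groups given above, but neither gene was called in either fit. Whether the marked motifs play a part in these values was not tested. The sequences run 5′ to 3′ from 250 bases before the start to 50 bases from it, and are from RefSeq on the GRCr8 build. Capitals mark TGACNNNGC, the core of the antioxidant response element, in Psmb5 (chr15:32047330-32047629, minus strand), and GAAANNGAA, the core of the interferon-stimulated response element, in Psmb8 (chr20:4656982-4657281, minus strand, where it lies on the opposite strand).
Psmb5: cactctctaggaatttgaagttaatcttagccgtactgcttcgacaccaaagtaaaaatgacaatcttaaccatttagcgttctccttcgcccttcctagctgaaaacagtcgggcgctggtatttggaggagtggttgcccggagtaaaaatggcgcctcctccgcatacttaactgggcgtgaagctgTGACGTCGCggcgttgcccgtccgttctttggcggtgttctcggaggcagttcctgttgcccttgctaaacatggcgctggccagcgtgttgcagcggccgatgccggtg
Psmb8: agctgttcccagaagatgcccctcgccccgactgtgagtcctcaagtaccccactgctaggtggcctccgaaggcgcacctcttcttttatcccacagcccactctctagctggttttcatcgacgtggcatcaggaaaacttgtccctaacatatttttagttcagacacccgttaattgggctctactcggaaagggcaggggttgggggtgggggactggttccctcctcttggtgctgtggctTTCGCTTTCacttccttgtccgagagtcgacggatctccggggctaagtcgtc

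RefSeq promoters were matched for 29 of the 33 members and for all 8 listed inducible and activator genes, and both strands were searched. TGACNNNGC was found in 6 of 29 member promoters (20.7%), those of Psma3, Psmb2, Psmb5, Psmd1, Psmd3 and Psmd9, and in 12.1% of all 33469 promoters. CCAAT, the CCAAT box, was found in 16 of 29 (55.2%, against 37.5% of all), and GGGCGG, the GC box, in 20 of 29 (69%, against 33.1% of all). GAAANNGAA was found in 5 of 29 member promoters (17.2%) and in 3 of 8 inducible and activator promoters, those of Psmb8, Psmb10 and Psme2, against 9.71% of all. In Psmb2 the T that ends a CCAAT box is the first base of TGACNNNGC, and the first pair of matches in Psmb10 overlap. The shares were not tested, and a match of letters is not a bound site. GAAANNGAA was not found in the promoters of Psmb9 and Psme1, which were called without replicate 2 of IONC 12 h. Psmb10, which has matches, was not called in either fit. The windows below show the matches in Psmd9 and Psmd11, the members called without that array. Beside them are a match in the inducible Psmb10 and a match in the activator gene Psme2. The motif is in capitals, with 10 bases on either side.
Psmd9 (chr12:39018370-39018398, minus strand): acttagctctGCCGGGTCAtctgaaaacc
Psmd9 (chr12:39018323-39018351, minus strand): gagtttccggTGACCTCGCcccacctcca
Psmd11 (chr10:65932153-65932181, plus strand): ggggactaacTTCGGTTTCgtctcttcag
Psmb10 (chr19:50743291-50743319, minus strand): agtggggggtGAAAGCGAAagtaggaagc
Psme2 (chr15:33052786-33052814, minus strand): cctggagagtGAAAGCGAAagctggggct

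Among 11 genes listed as regulators of proteasome genes, Stat3, a transcription factor of the cytokine response, was the only one called with all arrays. It had 11.04, 10.72 and 11.003 at IONT 12 h and 10.96, 10.85 and 11.06 at IONT 48 h, against 8.62, 8.46 and 8.50 in naive A to C, so the groups did not overlap. Stat3 rose by 2.40 at IONT 12 h (SE 0.38, adjusted p = 0.000367), 2.43 at IONT 48 h (adjusted p = 0.000214) and 1.91 at IONC 24 h (adjusted p = 0.00538). Without replicate 2 of IONC 12 h Stat3 was called higher in every injured group but IONT 15 d, by 1.05 at IONC 3 d to 2.43 at IONT 48 h. In that fit it was lower after IONC than after IONT at 48 h (-1.22, adjusted p = 0.00366). Nfe2l2, the factor that binds antioxidant response elements, had 10.50, 10.16 and 9.74 at IONT 12 h and 10.14, 9.99 and 9.98 at IONT 48 h, against 8.64, 8.44 and 8.60 in naive A to C. Its differences of 1.57 and 1.48 had adjusted p = 0.0497 and 0.0464 and were called only without replicate 2 of IONC 12 h. In that fit Nfe2l2 was also called at IONC 12 h (1.34, adjusted p = 0.00052). Of 15 associated and assembly factors, 0 were called by limma with all arrays (0 to 5 with an unadjusted p under 0.05 at the 11 times). The 5 were at IONC 12 h, where 46.4% of all probe sets were under that p. Without replicate 2 of IONC 12 h 1 was called, Zfand5 at IONC 48 h (-0.28, background 4.83%). Of the ubiquitin and E1 genes only Uba1, the ubiquitin-activating enzyme, was measured (1 of 5), with differences between -0.42 and 0.18 and no call.

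Cell type markers moved in these retinas. Of 10 ganglion cell markers, 8 were called lower at IONT 7 d (background 0.976%), 8 at IONT 15 d (1.87%) and 8 at IONC 7 d (0.577%). Their summed signal on the log2 scale was 11.12 to 11.48 at IONT 7 d, against 13.64 to 13.71 in naive A to C. At IONT 48 h and IONC 48 h, where Psmd9 and Psmd11 were lower, the sum was 12.58 to 13.08 and 11.89 to 12.74. At IONC 24 h, where both were also lower (-0.51 and -0.38), the sum was 13.40 to 13.44 and 0 of 10 markers were called. At IONT 15 d, where Psmd9 was higher by 0.71, the sum was 10.55 to 10.76, against 13.44 to 13.55 in naive D and E. The summed signal of 8 microglial and macrophage markers was 8.37 to 10.38 at IONC 12 h, a range that includes replicate 2. At IONC 48 h it was 10.03 to 10.29, against 7.47 to 7.80 in naive A to C. Psmb9 and Psme1 were higher at both times. Of 6 rod markers, 3 were called lower at IONT 48 h (background 2.06%) and 4 at IONC 12 h with replicate 2 included (4.14%). Of 5 lens markers all 5 were called lower at IONT 15 d (background 1.87%, median -2.54), where Psmd9 had 0.71 and Psmd12 -0.66. The marker calls are given with all arrays only. Pou4f1 was the dimmest ganglion cell marker (3.04 in naive A to C) and Cd68 the dimmest microglial one (1.76). Their part in the subunit values was not tested, and in whole retina fewer cells of a type and less RNA per cell cannot be told apart.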

How the data were processed

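RNA pools of 35 rat retinal samples were hybridised to Affymetrix arrays. The authors deposited GCRMA-normalised log2 signals, 1 value a probe set and array, with versions of GCRMA and limma not given in the sources used here. From these values limma 3.58.1 in R 4.3.3 (with statmod 1.5.0) fitted 1 mean for each of 11 injured groups and 2 naive sets, with eBayes and Benjamini-Hochberg adjustment over 31042 probe sets after 57 control probe sets of 31099 were left out. A call needed an adjusted p under 0.01, B above 0 and at least 1.2-fold. Of the probe sets, 20826 had 1 symbol, 436 several and 9780 none in an annotation of 2016, and all 33 members matched RefSeq. Members and lists were chosen with earlier results of these data known. All members were to be named by role, with values by array for the catalytic subunits, Psmd14 and called members. No number paired the samples, since the labels describe independent extractions, and p-values measure the spread between pools of 4 retinas. The number of arrays limits the precision. The fit was tested on simulated data. Alternatives were the call rule, the naive arrays used, a filter on dim probe sets, eBayes settings, array weights, scaling, the groups in the fit, probe sets averaged a gene, a replicate block and each array left out. The comparison of the naive sets, the fit without the block and the other lists without 1 array were chosen after seeing the data.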

Additional observations from a re-analysis of the deposited data

Results flagged for a closer look

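In 2 of the 33 genes 1 of the 5 naive arrays lay far from the others by Dixon's ratio of gap to range. Chance exceeds the bound used in about 1 in 20 groups, and 2 of 33 is near that rate. Naive D and E also differed from naive A to C, so the 5 arrays are not 1 uniform group. Psmc5, an ATPase of the base, was 9.77 in naive D, against 10.06 in the next lowest and 10.10 in the highest naive array (ratio 0.896). Psmd5, a base chaperone, was 9.35 in naive E, against 9.56 in the next lowest and 9.64 in the highest (ratio 0.713).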

How the results depend on the processing

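With all arrays no member was called in any comparison with naive or between lesions. At an adjusted p under 0.05 alone, 1 member passed at IONT 48 h, IONT 7 d, IONT 15 d, IONC 12 h and IONC 48 h. Under array weights, whose estimation stopped before full convergence, 1 member was called at IONT 24 h, 2 at IONT 48 h, 5 at IONT 7 d, 8 at IONC 12 h, 2 at IONC 24 h, 2 at IONC 48 h, 1 at IONC 3 d, 2 at IONC 7 d, and, for IONC minus IONT, 2 at 12 h, 2 at 24 h and 1 at 7 d. The same weights turned the sign of Psma1 (0.41), Psma2 (0.28), Psma5 (0.31), Psmc3 (0.27), Psmd13 (0.32) and Psmd3 (0.42) at IONC 12 h, and of Psmc3 in IONC minus IONT at 12 h (0.27). After cyclic loess 1 member was called at IONT 48 h. With all 5 naive arrays as 1 group 3 members were called in IONC minus IONT at 24 h, beside 1912 of 31042 probe sets, and 1 at 3 d. In that setting IONC minus IONT takes no account of the difference between the naive sets. Leaving out 1 array gave 0 to 1 calls at IONT 48 h, IONC 12 h, IONC 24 h, IONC 3 d and IONC minus IONT at 12 h, 24 h and 3 d, and 0 to 2 at IONC 48 h. The calls came from leaving out replicate 2 of IONC 12 h, except that at IONC 12 h (Psmd11, -0.77) and IONC minus IONT at 12 h (Psma6, -0.46) replicate 1 was the array left out. In the naive sets 7 calls became 11 by adjusted p alone, 12 under array weights and 3 to 10 with 1 array left out. The counts by adjusted p alone, array weights, cyclic loess and over the naive sets lack that setting's share of all probe sets. So do those with all naive arrays as 1 group at 3 d and with replicate 1 of IONC 12 h left out. They show how the settings move the calls and are no result about the members. The replicate block left 0 members called in every comparison set against naive A to C, as did the fit without it, and same-numbered arrays had a median correlation of deviations of 0.025 over 108 pairs. IONT at 24 h, 3 d and 15 d share no replicate numbers with naive D and E, so they had no such fit. The count over all probe sets changed most at IONC minus IONT 24 h, 1912 with all naive arrays as 1 group, against 73. Of the gene values under these alternatives, 25132 kept their direction and side of the call, 60 newly passed, 13 no longer passed and 726 uncalled ones changed sign. The causes were not tested. Where 1 of 2 arrays was left out, the lone array was assumed to vary like the other groups.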
